A study of Mus musculus with 661 samples.

Results

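The 10 genes described here make the parts with which a cell shows peptides to T cells. They were taken by symbol, as H2-K1, H2-D1, B2m, Tap1, Tap2, Psmb8, Psmb9, Cd74, H2-Aa and H2-Ab1, and all 10 were present among the 45771 nuclear genes of the count table. Of them, 7 belong to the class I pathway and 3 to the class II pathway. The levels are RNA levels in single stromal and endothelial cells sorted from the bone and marrow of wild type C57BL/6 mice, young at about 2 months and old at about 24 months of age. The table held 661 cells, and the 8 with at least 1000 CPM (counts per 1000000) of Il1b were left out by rule, which left 653.

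The 4 mesenchymal gates were sorted as Ter119-/CD45-/CD31- cells. MSC-S were endosteal and Sca-1+/CD51+, and gave 59 young and 59 old cells. The endosteal osteoprogenitor gates were Sca-1-/CD51+ and LepR-. The gate with PDGFRα, named mOPr, gave 26 young and 26 old cells, and the gate without it, named OPr, gave 44 young and 21 old cells after the rule on Il1b. MSC-L came from the marrow as Sca-1-/CD51+/PDGFRα+/LepR+ cells, 53 young and 58 old. The endothelial gates were AEC, endosteal and CD31+/Sca-1hi/CD105lo, with 84 young and 82 old cells, and SEC, from the marrow and CD31+/Sca-1lo/CD105hi, with 70 young and 71 old cells. No label names the mouse of a cell, so each of the 12 groups of a population and an age was 1 sample, differences between groups were not tested, and cells were not used as replicates.

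Each library was 1 cell. Its depth in nuclear gene counts ran from 216816 to 667862 (median 463538) in young MSC-L and from 87576 to 533765 (median 352562) in old MSC-L. In MSC-S it ran from 104972 to 885957 (median 602470) in young and from 167867 to 1115467 (median 693396) in old cells. Young OPr spanned 79352 to 1261596 (median 686077), and old OPr spanned 57517 to 1488549 (median 775926). Young mOPr spanned 329854 to 966204 (median 516984), and old mOPr 238298 to 842191 (median 444242). In AEC the depth ran from 79537 to 744650 (median 409992) in young and from 148403 to 810982 (median 414261) in old cells, and SEC were the shallowest by median, with 149085 to 487257 (median 314844) in young and 71320 to 454362 (median 302201) in old cells. The library numbers fell into 3 separate ranges, called range 1, range 2 and range 3 below, with 167, 298 and 188 kept cells. MSC-L, MSC-S, OPr and mOPr had cells in ranges 1 and 2, AEC in all 3, and SEC in range 3 alone.

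Class I molecules, made of a heavy chain and beta-2 microglobulin, carry peptides of the cell's own proteins to the surface of nearly all nucleated cells, where CD8 T cells read them. The peptides are cut by the proteasome, often in a form whose catalytic subunits have been exchanged under interferon, and pumped by the TAP transporter into the endoplasmic reticulum, where they are loaded. Class II molecules, made of an alpha and a beta chain and guided by the invariant chain, show peptides from the endocytic route to CD4 T cells and are typical of dendritic cells, macrophages and B cells, while endothelial cells can carry them as well.

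The labels of the gates were checked against marker genes. The 8 endothelial markers summed to 8674 and 8509 CPM in young and old AEC and to 6202 and 7359 CPM in young and old SEC, against at most 76 CPM, in old mOPr, in the mesenchymal gates. The 10 mesenchymal markers summed to between 13935 CPM, in young OPr, and 57206 CPM, in young MSC-L, with Cxcl12 the most abundant in young MSC-L at 48750.1 CPM. In the endothelial gates that sum lay between 2525 and 6579 CPM, most of it Cxcl12. By summed counts the gates thus held mostly the lineage, endothelial or mesenchymal, that their names give. Single libraries carried markers of both. Of the 307 endothelial cells, 24 carried at least 5 of the 10 mesenchymal markers, 12 young and 6 old SEC and 2 young and 4 old AEC, and of the 346 mesenchymal cells 1, an old OPr, carried at least 4 of the 8 endothelial ones. Without them the mesenchymal sum was 559 CPM in young and 1967 CPM in old SEC. They were kept, and why they carry both was not tested. In its clustering of the endothelial cells the paper marks some as contaminating doublets of mesenchymal and endothelial cells. The marker sums were not used to tell gates of 1 lineage apart, and the old progenitor gates differed from the young ones in their mix of cells. Cxcl12 was the most abundant mesenchymal marker in OPr of each age, at 4525 CPM in young and 26290 CPM in old cells. Cells of the authors' clusters M1 and M2, which hold most MSC-L, made up 6.82% of young OPr and 47.6% of old OPr, and 7.69% of young mOPr and 53.8% of old mOPr. The paper proposes that such cells of the old gates were MSC-L with reduced surface LepR, which was not tested here. Class I levels and counts of genes without the cells of M1 and M2 are given below for OPr and mOPr.

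Some libraries stood apart. The 8 cells left out for Il1b, at 1229 to 29523 CPM of it, were all old OPr of cluster M5 and carried 12 to 14 of 15 hematopoietic markers at 10 CPM or more, the level from which a cell is said to carry a gene. The highest Il1b in a kept cell was 61.5 CPM. Of these 8, 1 held 33855 CPM of Cd74, 15424 of H2-Aa and 32160 of H2-Ab1, more than any kept cell, so with all 29 old OPr the level of Cd74 was 1800.0 CPM in place of 1.62. Among the kept cells, 2 carried at least 7 hematopoietic markers, 1 old MSC-L of cluster M5 and 1 old SEC of cluster E6. The 15 hematopoietic markers summed to 682 CPM in old SEC and 264 CPM in old MSC-L, with Plek the most abundant in both, and to at most 187 CPM in the other groups. B cell markers summed to at most 24.6 CPM, in old OPr, all of it Ighm, and macrophage and dendritic markers to at most 23.1 CPM, in old mOPr. Neutrophil markers reached at most 22 CPM, in old AEC, and T cell markers at most 0.0965 CPM, in old SEC.

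There were also 3 runs of at least 5 consecutive libraries of 1 group that each held a Cd74 count. In old MSC-L the run held 9 cells, all of them with counts of Cd74, H2-Aa and H2-Ab1 together. In old OPr it held 10 cells, beginning with the cell of 33855 CPM of Cd74 that was left out, and in old AEC it held 6 cells. Class II levels of these 3 groups without the runs are given below.

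Of the 10 genes, 8 lie on chromosome 17. On GRCm38 (GENCODE M21), H2-K1 occupies chr17:33996017-34000347 on the minus strand and H2-D1 chr17:35262730-35267499 on the plus strand. Between them lies a block with Psmb9 at chr17:34181987-34187764 (minus), Tap1 at chr17:34187553-34197225 (plus), Psmb8 at chr17:34197721-34201454 (plus) and Tap2 at chr17:34203527-34216321 (plus), followed by H2-Ab1 at chr17:34257689-34269419 (plus) and H2-Aa at chr17:34282744-34287823 (minus). B2m is elsewhere, at chr2:122147686-122153083 on the plus strand, and Cd74 is on chromosome 18. Tap1 and Psmb9 overlap at their starts, and the counts were made without regard to strand, so reads from the overlap could not be given to either gene by strand. Reads that map to several places were dropped by the authors, which matters for close relatives. Of the 50-base words in the exons of H2-K1, 9.63% also occur in another gene, and the share was 12.8% in H2-D1, under 1% in Tap1, Tap2, Psmb8 and H2-Aa, and 0 in B2m, Psmb9, Cd74 and H2-Ab1. The levels of the class I heavy chains therefore leave out reads from the shared words.

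H2-K1 and H2-D1 encode the classical class I heavy chains, which hold the peptide, and B2m the light chain that all class I molecules share. H2-K1 was highest in MSC-L, at 3598 CPM in young and 2547 CPM in old cells. In AEC it stood at 1349 and 1428 CPM in young and old cells, and in SEC at 1744 and 1930.3 CPM. It was low in MSC-S, at 287 CPM in young and 339.9 CPM in old cells. The progenitor gates split by age, with 798 CPM in young and 2362 CPM in old OPr, and 283 CPM in young and 2407 CPM in old mOPr. By summed counts the old progenitor gates thus stood beside the marrow MSC-L, and the young gates beside or nearer to MSC-S. The old gates were mixed, with cells of M1 and M2 at 3727 CPM in OPr and 4116 CPM in mOPr. Their cells of clusters M3 to M5 stood at 319 and 506 CPM. Of the 11 neighbours in the order of the 12 levels, intervals overlapped for old mOPr with old OPr and for young MSC-S with young mOPr. All intervals of levels and ratios cover counting error only, since reads were copied by PCR and carried no molecular identifiers. No bound lay farther than 6.31% from a level resting on 1000 counts or more.

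Single cells spread widely around these levels. H2-K1 ran from 921 to 7640.1 CPM (median 3322) in young MSC-L and from 20.7 to 6308 CPM (median 1973) in old MSC-L, so that no young MSC-L was without it. Cells of young MSC-S ran from 0 to 2068 CPM (median 172), and those of old MSC-S from 0 to 1346 CPM (median 216). In OPr the cells ran from 0 to 8947 CPM (median 126) in young and from 0 to 6882 CPM (median 806) in old cells. In mOPr they ran from 0 to 3935 CPM (median 166) in young and from 20.9 to 6736 CPM (median 2385) in old cells. The medians of the old progenitor gates were above those of the young, while the cells of both ages overlapped over most of the range. In endothelium the cells of young AEC ran from 44.3 to 3710.5 CPM (median 1214), and those of old AEC from 13.8 to 4079 CPM (median 1236). Young SEC ran from 99.2 to 4065 CPM (median 1531), and old SEC from 113 to 5171 CPM (median 1856). Every endothelial cell carried the gene at 10 CPM or more.

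H2-D1 followed a like order on a higher scale. It reached 6940.1 CPM in young MSC-L and 4333 CPM in old MSC-L, against 1208 and 1613 CPM in young and old MSC-S. In OPr it stood at 1364 CPM in young and 4359 CPM in old cells, and in mOPr at 1309.5 and 3746 CPM. The endothelial levels lay close together, at 3162 and 3562 CPM in young and old AEC and 3443 and 3461 CPM in young and old SEC. Old OPr and old MSC-L had overlapping intervals, as had old and young SEC. In single cells H2-D1 ran from 816 to 14401 CPM (median 6564) in young MSC-L and from 7.91 to 5398 CPM (median 894) in young MSC-S. The cells of young OPr ran from 2.35 to 11519 CPM (median 256), and those of old OPr from 5.80 to 10827 CPM (median 2722). The young OPr median was the lowest of the 12 groups, below that of young MSC-S, although the level of the summed counts was higher in young OPr.

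B2m was highest in young MSC-L as well, at 2042 CPM, followed by old MSC-L at 1619.5 CPM. It stood at 483 and 539.6 CPM in young and old MSC-S. In OPr it was 411 CPM in young and 1277 CPM in old cells, and in mOPr 405 and 1392 CPM. H2-K1, H2-D1 and B2m therefore shared the split of the progenitor gates by age. In AEC B2m was 1146 and 1175 CPM in young and old cells, and in SEC 1241 and 929 CPM, where the old level was the lower one. The order of the 12 levels had overlapping intervals for young OPr and young mOPr alone. Per kilobase of exon, B2m in young MSC-L stood at 2375 CPM, between H2-D1 at 2691 and H2-K1 at 1225. In young MSC-S the per-kilobase levels were 562 for B2m, 468 for H2-D1 and 97.8 for H2-K1. B2m was then the highest of the 3, and H2-K1 was the lowest in both gates.

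Tap1 and Tap2 encode the subunits of the peptide transporter and were present at a far lower level. Tap1 stood at 80.3 CPM in young and 117 CPM in old MSC-L, and at 16.8 and 12.2 CPM in young and old MSC-S. In OPr it was 28 CPM in young and 123 CPM in old cells, the highest of the 12 levels, and in mOPr 13.9 and 82.2 CPM. The intervals of old OPr and old MSC-L overlapped, and 1 cell held 32.3% of the old OPr counts. Without the top cell of each group Tap1 was 87.8 CPM in old OPr and 110 CPM in old MSC-L. In AEC it was 98.7 and 81.4 CPM in young and old cells, and in SEC 86.4 and 86.8 CPM. Young progenitors and MSC-S of both ages were low, and the other groups lay close to each other, with overlapping intervals for 7 of 11 neighbours in the order. The gene was carried by 27 of 53 young MSC-L, 7 of 59 young MSC-S and 44 of 84 young AEC, so the level of a group rested on part of its cells.

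Tap2 was highest in endothelium, at 132 CPM in young and 153 CPM in old SEC, and at 117 and 108 CPM in young and old AEC. In MSC-L it stood at 80.5 and 85.6 CPM, and in MSC-S at 32.2 and 22.3 CPM, in young and old cells. OPr had 31.1 CPM in young and 40.8 CPM in old cells, and mOPr 34.6 and 84.3 CPM. Tap2 thus placed SEC above MSC-L, unlike H2-K1, H2-D1 and B2m, and its intervals overlapped for 4 of 11 neighbours, among them old MSC-L, old mOPr and young MSC-L. Per kilobase of exon, Tap2 in old SEC stood at 40.4 CPM against 15.9 CPM for Tap1, while in old OPr Tap1 was the higher, at 22.5 against 10.8 CPM.

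Psmb8 and Psmb9 encode catalytic subunits of the immunoproteasome, which take the place of Psmb5 and Psmb6 of the constitutive form. Psmb8 stood at 149 CPM in young and 92.1 CPM in old MSC-L, and at 17.5 and 14.5 CPM in young and old MSC-S. In OPr it was 21 CPM in young and 98.4 CPM in old cells, and in mOPr 21.5 and 170.3 CPM. In AEC it was 124 and 182 CPM in young and old cells, and in SEC 118 and 122 CPM. The 4 low groups, young and old MSC-S, young OPr and young mOPr, all lay under 92.1 CPM, the lowest of the other 8. Intervals overlapped for 5 of 11 neighbours, old AEC with old mOPr at the top among them.

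Psmb9 spanned the widest range of the class I genes. It stood at 1.10 CPM in young MSC-S (95% interval 0.778 to 1.51), 2.33 in young mOPr (1.61 to 3.26) and 5.25 in young OPr (4.45 to 6.15). Old MSC-S had 7.27 CPM, old OPr 46.7 CPM and old mOPr 119 CPM, the highest level of the 12. In young and old MSC-L it was 115 and 69.7 CPM, in AEC 76.6 and 59.5 CPM and in SEC 81.2 and 109.5 CPM. The young endosteal mesenchymal gates were nearly without it, with 2 of 59 young MSC-S, 3 of 44 young OPr and 1 of 26 young mOPr at 10 CPM or more. Among young MSC-L, 34 of 53 carried it. In old mOPr, 1 cell held 52.5% of the counts, and when the top cell of each age was left out the levels were 58 CPM in old and 0 in young mOPr.

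Set against the constitutive partners, the same groups stood apart. Per kilobase of exon, the ratio of Psmb8 to Psmb5 was 1.33 (95% interval 1.22 to 1.44) in young MSC-L and 0.554 (95% interval 0.511 to 0.602) in old MSC-L. It was 0.111 and 0.107 in young and old MSC-S, 0.202 and 0.857 in young and old OPr, and 0.173 and 0.875 in young and old mOPr. In AEC it was 1.63 and 1.21, and in SEC 0.751 and 0.686. Psmb8 was above Psmb5 in young MSC-L and in AEC of both ages, and below it in the other 9 groups. For Psmb9 over Psmb6 the ratio was 0.369 and 0.247 in young and old MSC-L, 0.00392 (95% interval 0.00277 to 0.00539) in young MSC-S and 0.0330 in old MSC-S. It was 0.0221 and 0.179 in young and old OPr, 0.00942 and 0.446 in young and old mOPr, 0.288 and 0.263 in AEC, and 0.282 and 0.511 in SEC. No group had more Psmb9 than Psmb6 on this scale. The ratio of the remaining pair, Psmb10 over Psmb7, ran from 0.309 in young OPr to 6.30 in old MSC-L.

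**Figure D1:**
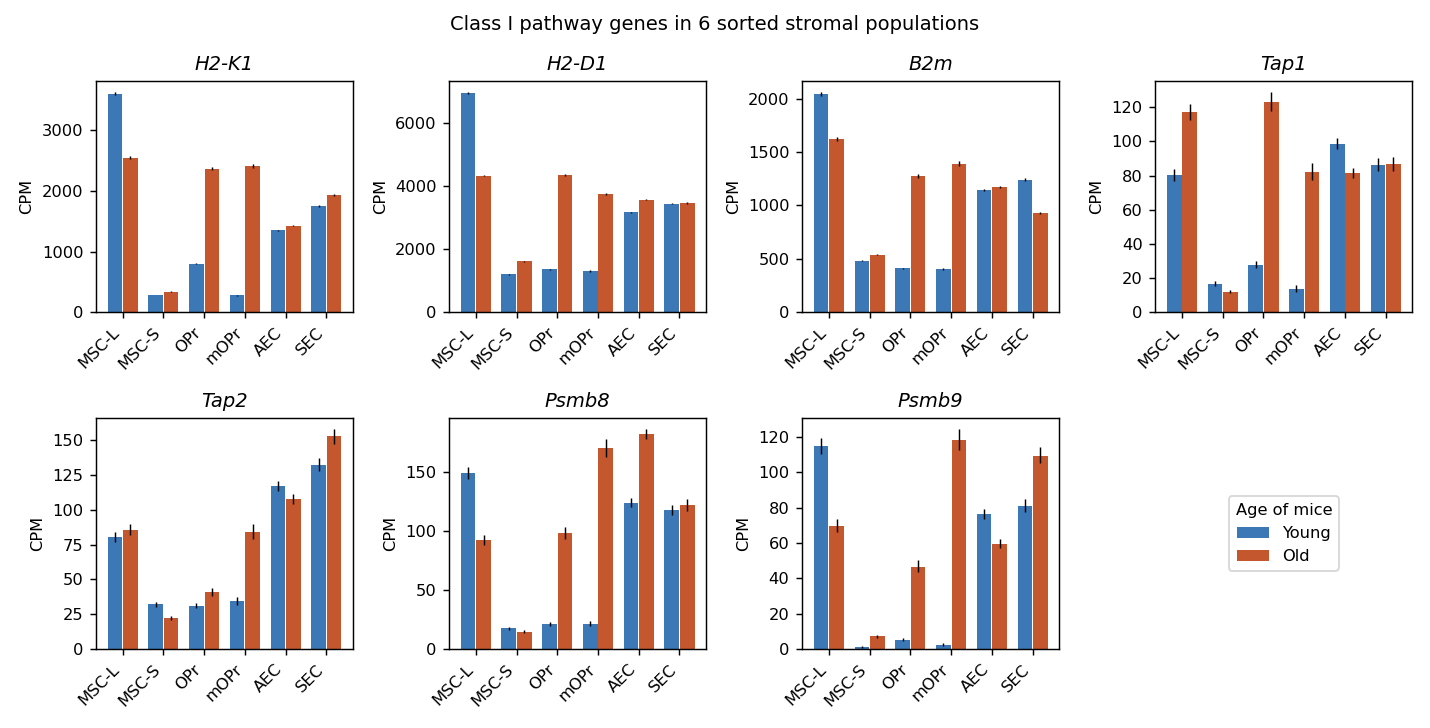
Level of the 7 class I pathway genes in CPM of summed counts (bars, with 95% counting intervals as lines), for young (blue) and old (orange) cells of the 6 sorted populations, 1 panel per gene with its own axis and 1 sample per bar. H2-K1 in old mOPr (2407 CPM) stands by old MSC-L (2547 CPM), and in young mOPr (283 CPM) by young MSC-S (287 CPM). The old mOPr bar sums 14 cells of clusters M1 and M2 (4116 CPM) and 12 cells of M3 to M5 (506 CPM).

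Between the MSC gates (mesenchymal stromal cells) of young mice, the marrow MSC-L had more of every class I gene than the endosteal MSC-S. H2-K1 was 12.5-fold higher (log2 ratio 3.65, 95% interval 3.62 to 3.68), H2-D1 5.74-fold and B2m 4.22-fold. Tap1 was 4.79-fold and Tap2 2.50-fold higher, and Psmb8 was 8.53-fold higher. The difference was widest for Psmb9, 105-fold with a log2 ratio of 6.71 (95% interval 6.25 to 7.21). Of the young MSC-S counts of Psmb9, 60.5% came from 1 cell, and without the top cells the levels were 108 against 0.442 CPM. For counts over gene lists, the log2 ratio was taken after adding 1 CPM, and genes had to reach 100 counts in the 2 groups together, in 5 cells or more. On that scale all 7 genes passed and all 7 were 2-fold or more higher, with a median of 2.52 and a range from 1.30 to 5.79. Among all 13645 genes that passed, 28.8% were 2-fold or more higher and 16.8% 2-fold or more lower, and the median was 0.32. Within range 1 the class I median was 3.02 and within range 2 2.26, and Tap2 was just under 2-fold within range 1, at 0.96. Median-of-ratios size factors in place of library totals moved the median of all genes by -0.14.

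Between the endothelial gates of young mice the class I genes differed little. The comparison used the 24 young AEC of range 3, the range that holds all 70 young SEC. H2-K1 was 1744 CPM in SEC against 1287 CPM in these AEC, a log2 ratio of 0.44 (95% interval 0.40 to 0.47). B2m was 1241 against 825 CPM, a log2 ratio of 0.59 (95% interval 0.55 to 0.63). Of the 7 genes, 0 were 2-fold or more higher and 1 was 2-fold or more lower in SEC, where 24.9% and 17.3% of all 11908 genes were. The lower gene was Tap1, at 86.4 against 182 CPM, and 40.7% of the AEC counts came from 1 cell. Without the highest cell of each gate Tap1 stood at 79.1 against 109 CPM, which is less than 2-fold. The median of the 7 genes was 0.20 (range -1.06 to 0.59), beside 0.10 over all genes.

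With age, the class I genes differed most in the osteoprogenitor gates. In OPr, H2-K1 was 2.96-fold higher in old cells (log2 ratio 1.57, 95% interval 1.54 to 1.59), H2-D1 3.20-fold and B2m 3.10-fold. Tap1 was 4.41-fold, Psmb8 4.68-fold and Psmb9 8.89-fold higher, while Tap2 stood at 40.8 against 31.1 CPM. All 7 genes passed the filter, and 6 were 2-fold or more higher and 0 lower, where among 12980 genes 26.4% were 2-fold or more higher and 18.4% 2-fold or more lower. The class I median was 1.68 (range 0.38 to 2.93), beside 0.22 over all genes. Size factors moved the median of all genes by -0.16 in this comparison. Within range 1, with 7 old and 13 young cells, the class I median was 1.51, and within range 2, with 14 and 31 cells, it was 3.04. For H2-K1, 1 young cell held 44.2% of the young counts, and without the top cells it stood at 2018 against 463 CPM. A single young cell held 79.4% of the young counts of Psmb8 and a single cell 70.8% of those of Psmb9. With the top cell of each age left out Psmb8 was 76.2 CPM in old against 4.51 CPM in young OPr, and Psmb9 38.7 against 1.60 CPM.

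In mOPr all 7 genes were 2-fold or more higher in old cells and 0 lower, where among 11237 genes 24.7% were 2-fold or more higher and 19.8% 2-fold or more lower. H2-K1 was 8.49-fold higher (log2 ratio 3.09, 95% interval 3.04 to 3.13), H2-D1 2.86-fold and B2m 3.44-fold. Tap1 was 5.90-fold, Tap2 2.44-fold and Psmb8 7.94-fold higher. Psmb9 had 1480 counts in old and 34 in young mOPr, all the young ones in 1 cell, a log2 ratio of 5.67 (95% interval 5.18 to 6.20). The class I median was 2.48 (range 1.26 to 5.17), beside 0.11 over all genes, whose median size factors moved by -0.13. Within range 1 the class I median was 3.02, and within range 2 2.47. Tap2 went different ways in the ranges, with 148 CPM in old against 5.59 CPM in young cells of range 1 and 44.7 against 61.1 CPM in range 2. Tap1 was 47 against 25.5 CPM in range 1, less than 2-fold, and 104 against 3.28 CPM in range 2. Of its old counts 49.8% came from 1 cell, and of the young counts of Psmb8 83.1%. Without the top cells Tap1 stood at 43.3 against 8.14 CPM and Psmb8 at 120.2 against 3.79 CPM.

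The mix of cells in these gates differed by age beside the class I genes. H2-K1, B2m and Psmb8 are among the genes that define the mesenchymal clusters, so a split by cluster is partly a split by their own levels. In old OPr, the 10 cells of clusters M1 and M2 stood at 3727 CPM of H2-K1, and the 11 cells of clusters M3 to M5 at 319 CPM. In young OPr the 3 cells of M1 and M2 stood at 5989 CPM, and the 36 cells of M3 to M5 at 182 CPM. Within M1 and M2 young OPr thus had no less H2-K1 than old OPr, on 3 cells. In old mOPr, the 14 cells of M1 and M2 stood at 4116 CPM and the 12 cells of M3 to M5 at 506 CPM. The 2 young mOPr of M1 and M2 were lower, at 2549 CPM. In young mOPr, most cells lay in M6 to M16, where the 16 cells stood at 143 CPM, and the 8 cells of M3 to M5 at 216 CPM. In H2-K1, the M3 to M5 cells of the old gates were thus between the M1 and M2 cells of their gate and the young cells of M3 to M5 by summed counts. By the median cell this held in mOPr, where old cells of M3 to M5 had 285 CPM against 173 in young ones, but not in OPr, with 89.5 CPM against 100.7. Without the cells of M1 and M2, old OPr had 11 and young OPr 41 cells. Of the 6 class I genes that then passed the filter, 5 were 2-fold or more higher in old cells and 0 lower, beside 23.7% and 28.1% of all genes. H2-K1, at 319 against 197 CPM, was under 2-fold, and Tap1 was 172 against 11.6 CPM, with 57.9% of its old counts in 1 cell. Single cells also held 86.7% of the old Psmb8, 51.9% of the old Tap2 and 41.3% of the old H2-D1 counts. With the top cells left out too, H2-D1 (649 against 398 CPM) and B2m (347 against 179 CPM) were under 2-fold, while Tap1 (82.2 against 9.56 CPM), Tap2 (24.3 against 9.25 CPM) and Psmb8 (4.55 against 0.430 CPM) were past it. In mOPr, with 12 old and 24 young cells left, 3 of 6 were higher and 1 lower, beside 21.8% and 32.6%. There H2-K1 was 506 against 166 CPM, with 46.3% of its old counts in 1 cell, and 308 against 147 CPM without the top cells. H2-D1 was 1192 against 1186 CPM and B2m 636 against 368 CPM, and Tap1 was lower in old cells, at 0.507 against 8.29 CPM. Psmb8 was 119 against 18.9 CPM, with 95.2% of the old and 99.2% of the young counts in single cells, and Tap2 92.4 against 35.4 CPM, or 32.9 against 19.6 CPM without the top cells. The cells left still differed in clusters, since the 12 old mOPr were all of M5 and 7 of the young ones were.

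Over all sorted populations, the 31 old and 55 young cells of M3 to M5 gave a class I median of 1.22 for old over young. They were 1 old and 15 young cells of M3, 4 and 9 of M4, and 26 and 31 of M5, and M5 had the most H2-K1, H2-D1 and B2m of the 3 clusters. H2-K1 stood at 377 CPM in old against 254 CPM in young cells, H2-D1 at 1187 against 653 CPM and B2m at 596 against 310.4 CPM. These 3 were less than 2-fold apart. Tap1 was 77.9 against 15.5 CPM, Tap2 57.2 against 23.9 CPM, Psmb8 61.5 against 17.3 CPM and Psmb9 56.8 against 1.43 CPM, each past 2-fold. In cells of M1 and M2 the median was -0.30, with 3194 CPM of H2-K1 in 80 old and 3927 CPM in 56 young cells. Single cells weighed heavily in M3 to M5. In the old cells, 1 old mOPr held 94.2% of the Psmb9 counts, 1 held 74.8% of those of Psmb8 and 1 held 44.2% of those of Tap2, and 1 old OPr held 56.3% of those of Tap1. With the top old and the top young cell of each gene left out, Psmb8 was 15.9 against 8.96 CPM and Tap2 33 against 16.7 CPM, both less than 2-fold apart. Psmb9 was then 3.39 against 0.636 CPM and Tap1 36 against 11.5 CPM. Within M5 alone, all cells included, the log2 ratio after adding 1 CPM was 0.13 for H2-K1, 0.29 for H2-D1 and 0.27 for B2m, 0.92 for Tap2 and 0.94 for Psmb8, so that these 5 were under 2-fold, and 2.12 for Tap1 and 5.93 for Psmb9.

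**Figure D2:**
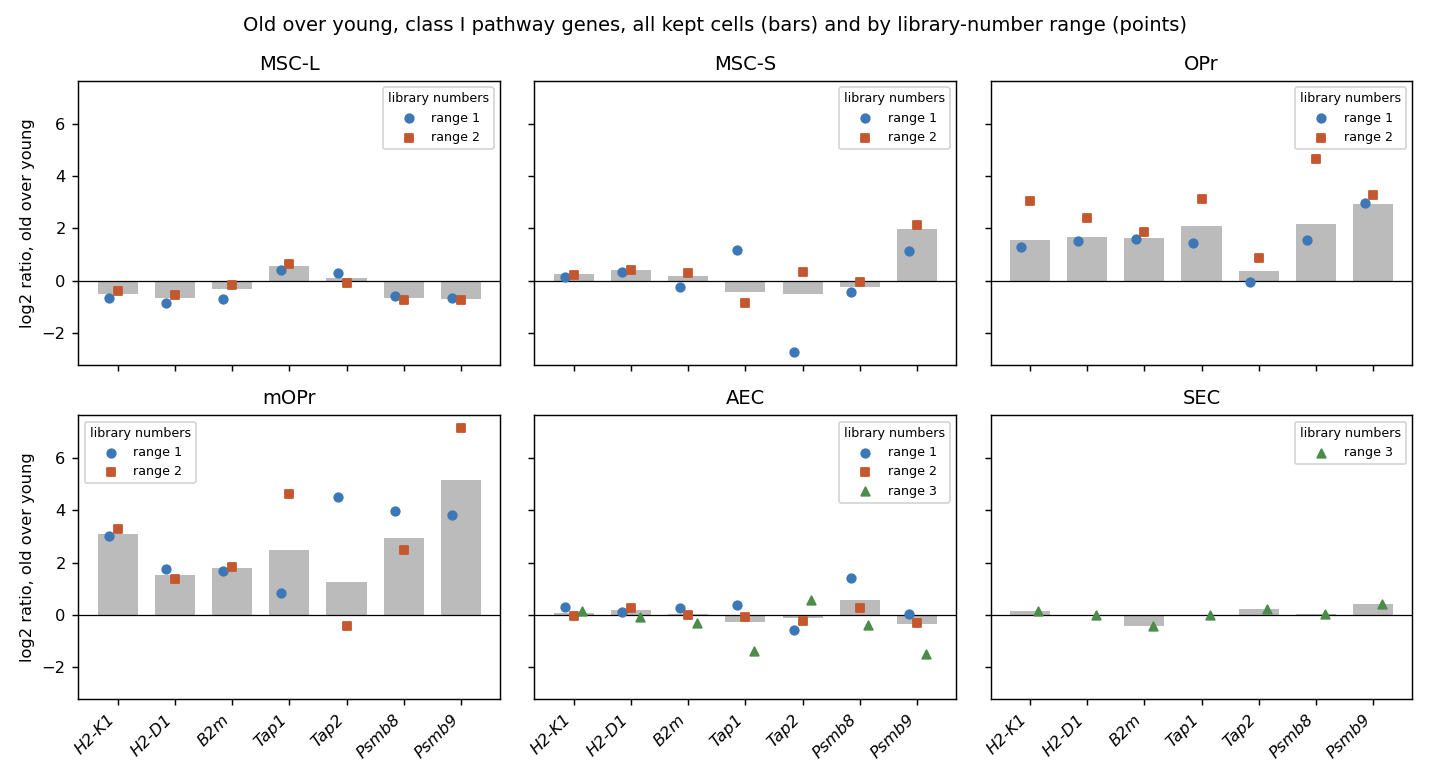
Log2 ratio of old over young CPM, with 1 CPM added to each, for the 7 class I pathway genes in the 6 sorted populations, from all kept cells (bars) and within each range of library numbers (points). The median of the 7 bars is 1.68 in OPr and 2.48 in mOPr, and between -0.50 and 0.16 in the other 4 populations.

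In MSC-L most class I genes were lower in old cells, by less than 2-fold. H2-K1 had a log2 ratio of -0.50 (95% interval -0.51 to -0.48), H2-D1 of -0.68 (95% interval -0.69 to -0.67) and B2m of -0.33 (95% interval -0.36 to -0.31). Psmb8 had -0.69 (95% interval -0.78 to -0.61) and Psmb9 -0.72 (95% interval -0.82 to -0.63). Tap1 went the other way, with a log2 ratio of 0.54 (95% interval 0.46 to 0.63), and the interval of Tap2 held 0. Of the 7 genes, 0 were 2-fold or more higher and 0 lower, where among 13143 genes 13.9% were 2-fold or more higher and 11.5% 2-fold or more lower. The class I median was -0.50 (range -0.71 to 0.54), beside 0.01 over all genes. It was -0.66 within range 1 and -0.39 within range 2. Cells of clusters M1 and M2 made up 96.2% of young and 96.6% of old MSC-L, but the split between them differed, with 39 young and 33 old cells in M1 and 12 young and 23 old cells in M2. The class I median of old over young MSC-L was -0.14 within M1 and -0.99 within M2. H2-K1 was 3155 against 3958 CPM in M1 and 1346 against 2568 CPM in M2, and Psmb8 118 against 124 CPM in M1 and 40.7 against 244 CPM in M2. Tap1 went different ways, at 146 against 70.2 CPM in M1 and 60.2 against 137 CPM in M2, both past 2-fold. The share of cells that carried Psmb9 was 64.2% in young (34 of 53) and 43.1% in old MSC-L (25 of 58).

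In MSC-S the RNA of the classical class I heavy chains and of B2m was slightly higher in old cells. The log2 ratios were 0.24 (95% interval 0.20 to 0.28) for H2-K1, 0.42 (95% interval 0.40 to 0.44) for H2-D1 and 0.16 (95% interval 0.13 to 0.19) for B2m. Within range 1 B2m was lower in old cells instead, with a log2 ratio of -0.27 after adding 1 CPM. The mix of clusters in this gate differed by age, with 14 young and 21 old cells in M16, and all 10 cells of M9 were old MSC-S. M16 had more H2-K1 and H2-D1 than any of M3 to M15. Over all gates, H2-K1, H2-D1 and B2m were higher in old cells of M16. In M7 and M12 B2m was lower in old cells, and H2-K1 and H2-D1 went different ways. The part of the mix in these differences was not tested. Over all cells Tap1, Tap2 and Psmb8 were lower, by less than 2-fold, and the ranges differed. Tap1 was 11.6 CPM in old against 4.52 CPM in young cells of range 1 and 12.4 against 23.5 CPM in range 2, while Tap2 was 6.89 against 51.8 CPM in range 1 and 27.5 against 21.5 CPM in range 2. Of the 7 genes, 1 was 2-fold or more higher and 0 lower, where among 13381 genes 8.65% were 2-fold or more higher and 11.1% 2-fold or more lower. The higher gene was Psmb9, at 7.27 against 1.10 CPM, and 1 old cell held 59.3% of its old counts. With the top cell of each age left out it stood at 3.03 against 0.442 CPM. The class I median was 0.16 (range -0.51 to 1.98), beside -0.06 over all genes, with 0.14 within range 1 and 0.28 within range 2.

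In the endothelial gates the class I genes differed little by age. In AEC, 0 of the 7 were 2-fold or more higher in old cells and 0 lower, where among 14042 genes 9.33% were 2-fold or more higher and 11.7% 2-fold or more lower. The largest difference was that of Psmb8, with a log2 ratio of 0.56 (95% interval 0.50 to 0.61), and the class I median was 0.04 (range -0.36 to 0.55), beside -0.03 over all genes. That median was 0.24, -0.06 and -0.33 within ranges 1, 2 and 3, so its sign was not the same in the 3. Nor was that of Psmb8, at 1.42, 0.27 and -0.37. Within range 3 Tap1, at -1.39, and Psmb9, at -1.50, were past 2-fold lower in old cells. Of the young Tap1 counts of range 3, 40.7% came from 1 cell. Without it the young level was 109 CPM, less than 2-fold above the 68.8 CPM of all old cells there. In SEC, 0 of the 7 were 2-fold or more higher and 0 lower, where among 12982 genes 13.1% were 2-fold or more higher and 7.56% 2-fold or more lower. B2m had the lowest log2 ratio there, -0.42 (95% interval -0.44 to -0.39), and Psmb9 the highest, 0.43 (95% interval 0.34 to 0.52). The class I median was 0.05 (range -0.42 to 0.43), beside 0.05 over all genes, and SEC had cells in range 3 alone.

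Over the authors' clusters, which were built on these cells, H2-K1, B2m and Psmb8 were among the genes that define the mesenchymal clusters, so the levels are a description. H2-K1 was highest in M1, at 3839 CPM over 86 cells, and stood at 2729 CPM in the 50 cells of M2. In the other mesenchymal clusters it ran from 55.8 CPM in M4 to 448 CPM in M16. H2-D1, not a defining gene, had the same leading clusters among the mesenchymal ones, with 6561 CPM in M1 and 5034 CPM in M2 and at most 2276 CPM, in M16, elsewhere. Within M16, which held 15 young and 21 old cells, H2-K1 stood at 314 CPM in young and 541 CPM in old cells. In endothelium H2-K1 ran from 1039 CPM in E5 to 1769 CPM in E7 over E3 to E7. The small cluster E2, with 8 cells, was lower, at 693 CPM, and E1, with 14 cells, higher, at 2697 CPM. Psmb9 stood at 91.4 and 88.9 CPM in M1 and M2, at 32 CPM in M5 and at 4.22 CPM in M16, and was 0 in M7, M10, M11 and M13 to M15.

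The class II genes were present in few cells. Cd74 encodes the invariant chain, which guides class II molecules and guards their groove, and H2-Aa and H2-Ab1 encode the alpha and beta chains. Cd74 stood at 83 CPM in young and 280.1 CPM in old AEC, and at 15.9 and 53.6 CPM in young and old SEC. In MSC-L it was 0.0877 CPM in young (95% interval 0.0106 to 0.317) and 6.15 CPM in old cells (5.10 to 7.36). In MSC-S it was 0.0289 and 0.0510 CPM, in OPr 0.273 and 1.62 CPM, and in mOPr 0.206 CPM and 0 counts, in young and old cells. The upper limit that 0 counts allow, 3 counts of the total, is 0.240 CPM in old mOPr. Endothelial cells were thus above every mesenchymal gate, and the lowest 6 levels formed an unbroken chain of overlapping intervals. Per kilobase of exon, Cd74 in old AEC stood at 167 CPM, above Psmb8 at 53.9 and below H2-K1 at 486.

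H2-Aa stood at 34.1 CPM in young and 114 CPM in old AEC, and at 32 and 27.6 CPM in young and old SEC. In MSC-L it was 0.0877 and 2.62 CPM and in OPr 2.25 and 1.75 CPM, in young and old cells. A single cell held 98.5% of the young OPr counts. Without the top cell of each age H2-Aa was 0.0351 CPM in young and 1.46 CPM in old OPr, so the order turned. In mOPr it was 0.0686 CPM in young and 0 in old cells, and it had no count in young or old MSC-S, where 3 counts would be 0.0868 CPM in young and 0.0766 CPM in old cells. Old AEC stood alone at the top, and 8 of 11 neighbours in the order had overlapping intervals. H2-Ab1 stood at 75 and 217 CPM in young and old AEC and at 44.4 and 166 CPM in young and old SEC. In MSC-L it was 17.8 and 14.8 CPM, in MSC-S 0.0579 and 3.60 CPM, in OPr 8.69 and 42 CPM and in mOPr 0.206 CPM and 0, in young and old cells. Old AEC and old SEC were highest, and 1 young MSC-L held 99.5% of the young MSC-L counts.

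In every group the median cell had no count of Cd74 or H2-Aa, and the highest cells set the level. In old AEC the highest cell held 5355 CPM of Cd74, 1605 CPM of H2-Aa and 2289.9 CPM of H2-Ab1, each taken by itself. Cd74 was carried at 10 CPM or more by 19 of 82 old AEC (23.2%) and 7 of 84 young AEC (8.33%). In SEC it was carried by 8 of 71 old and 3 of 70 young cells. Of the 653 cells, 31 carried all 3 class II genes, which is 4.75%, and 114 carried at least 1. Without the 22 kept cells of the runs these were 21 and 97 of 631 cells. The 31 cells were 15 old AEC, 7 old MSC-L, 3 young AEC, 3 young SEC, 2 old SEC and 1 old OPr. No cell of young MSC-L, young OPr, MSC-S or mOPr carried all 3, which allows a share of up to 5.66% in young MSC-L, 6.82% in young OPr, 5.08% in MSC-S of each age and 11.5% in mOPr of each age.

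In AEC all 3 class II genes were higher in old cells. Cd74 was 3.37-fold higher (log2 ratio 1.75, 95% interval 1.69 to 1.81), H2-Aa 3.34-fold (1.74, 95% interval 1.65 to 1.83) and H2-Ab1 2.89-fold (1.53, 95% interval 1.47 to 1.60). All 3 were past 2-fold and 0 lower, with a median of 1.71 (range 1.52 to 1.74), beside the 9.33% of all genes that were 2-fold or more higher and the 11.7% lower in old AEC. A single cell held 55.3% of the young counts of Cd74, and when the top cell of each age was left out Cd74 stood at 224 CPM in old against 37.6 CPM in young AEC. Within range 1 Cd74 was 343 CPM in old and 158 CPM in young AEC, within range 2 226 and 35.8 CPM, and within range 3 365 and 98.2 CPM. H2-Aa within range 3 was 115 against 79.5 CPM, and H2-Ab1 233 against 138 CPM, both less than 2-fold. H2-Ab1 was also less than 2-fold apart in range 1, at 192 against 98.6 CPM, and past 2-fold in range 2 alone, at 222 against 39.8 CPM. Cells with all 3 genes made up 18.3% of old AEC (15 of 82, exact Clopper-Pearson 95% interval 10.6 to 28.4%) and 3.57% of young AEC (3 of 84, 0.743 to 10.1%). These intervals cover the drawing of cells within 1 sample only, say nothing of the spread between mice and test no difference. By range they were 3 of 20 old against 0 of 20 young cells, 8 of 39 against 1 of 40, and 4 of 23 against 2 of 24. The old share was thus the higher in each of the 3 ranges. Without the run of 6 libraries Cd74 in old AEC was 241 CPM, H2-Aa 105 CPM and H2-Ab1 215 CPM, and 13 of 76 cells carried all 3 genes.

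In SEC, Cd74 and H2-Ab1 were past 2-fold higher in old cells, with large parts of the counts in single cells. Cd74 was 3.37-fold higher (log2 ratio 1.75, 95% interval 1.58 to 1.93) and H2-Ab1 3.75-fold (1.91, 95% interval 1.80 to 2.01), while H2-Aa stood at 27.6 against 32 CPM, with 49.5% of its young counts in 1 cell. These 2 of 3 genes were 2-fold or more higher and 0 lower, with a median of 1.69 (range -0.20 to 1.88), beside 13.1% and 7.56% of all genes. A single young cell held 69.9% of the young counts of Cd74, and when the top cell of each age was left out it stood at 34.1 CPM in old against 4.87 CPM in young SEC. In the same way H2-Aa was 21 against 16.4 CPM. Among the SEC of cluster E7, top cells included, H2-Aa was 24 against 18.5 CPM. Over all cells of E7, without the top cell of each age, it was 13.0 against 8.31 CPM. For H2-Ab1, 1 cell held 38.2% of the old and 1 cell 52.5% of the young counts, and without them it was 105 against 21.4 CPM. Among the SEC of E7, top cells included, H2-Ab1 was 147 against 38.9 CPM. Over all cells of E7, single cells held 69.4% of its old and 72.9% of its young counts. Without these it was 46.3 against 10.4 CPM. The gate also differed in its mix, with 44 of 71 old and 59 of 70 young SEC in E7 and hematopoietic markers at 682 CPM in old against 187 CPM in young SEC, and the part of this in the class II difference was not tested. Cells with all 3 genes were 2 of 71 old and 3 of 70 young SEC. Cells with at least 1 of the 3 were 35.2% of old SEC (25 of 71, 95% interval 24.2 to 47.5%) and 10.0% of young SEC (7 of 70, 4.12 to 19.5%). These intervals again cover the drawing of cells within 1 sample only. H2-Ab1 made up most of this, carried by 23 of 71 old and 5 of 70 young SEC. In AEC at least 1 gene was carried by 32 of 82 old and 18 of 84 young cells. Between the young gates of range 3, all 3 genes were 2-fold or more lower in SEC (median -1.61), beside 17.3% of all genes. Cd74 was 15.9 CPM in SEC against 98.2 CPM in AEC, and H2-Aa 32 against 79.5 CPM, with 84.8% of the AEC counts of H2-Aa in 1 cell. For Cd74, 1 cell held 69.9% of the SEC and 1 cell 67.2% of the AEC counts. Without the highest cell of each gate Cd74 was 4.87 against 34.2 CPM, H2-Ab1 21.4 against 53.4 CPM and H2-Aa 16.4 against 12.8 CPM.

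**Figure D3:**
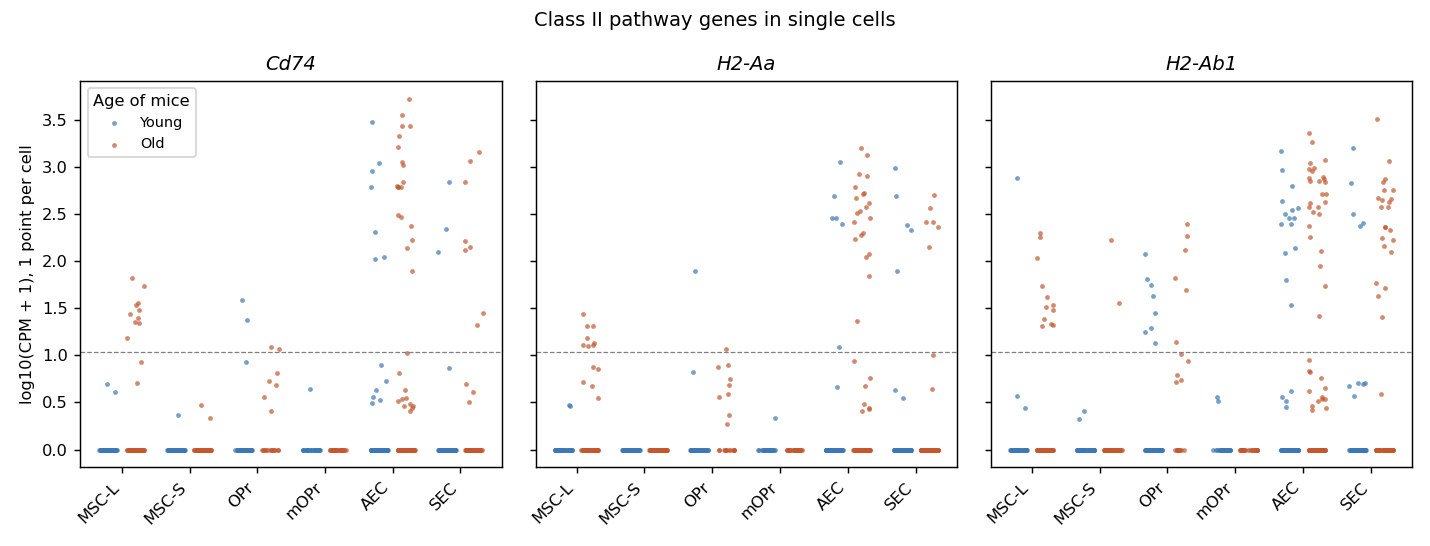
Cd74, H2-Aa and H2-Ab1 in single cells of the 12 groups, as log10 of CPM plus 1 (each point is 1 kept cell, and the dashed line marks 10 CPM, the level from which a cell carries a gene). Old AEC hold the most cells with Cd74 above the line, 19 of 82, against 7 of 84 young AEC.

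By cluster, Cd74 was highest in E4, at 297 CPM, followed by E5 at 189, E6 at 131 and E3 at 94.3 CPM. It was 19.1 CPM in E7, the cluster of most SEC, and 0 in E1. Within E4 it stood at 471 CPM in 33 old cells against 86.2 CPM in 26 young cells, and 11 of the old but 2 of the young carried all 3 class II genes. In E3 it was 156 CPM in old and 5.16 CPM in young cells, from 3 carrying cells of 60. E5 had the opposite order, with 73.2 CPM in old and 280.1 CPM in young cells, on 4 carrying cells of 37. In E7 it was 37.5 CPM in old and 6.21 CPM in young cells. There 1 old cell held 75.9% of the old and 1 young cell 60.9% of the young counts, and without them the levels were 9.28 and 2.47 CPM. Of the 59 cells of E4, 31 carried at least 1 of the 3 genes, as did 14 of the 24 cells of E6 and 19 of the 105 cells of E7.

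The 23 endothelial cells with all 3 class II genes were checked for other cell types. All 23 carried Pecam1 and all 23 carried Cdh5, and the 8 endothelial markers summed to 8997 CPM in them against 7798 CPM in the other 284 endothelial cells. Ptprc, the marker of blood cells, was carried by 0 of the 23, which allows a share of up to 13% if 3 of the 23 cells are taken as the limit. The 15 hematopoietic markers summed to 153 CPM against 219 CPM in the other cells, led by Lcp1 at 86 CPM, and no cell of the 23 carried more than 3. The B cell genes Cd79b and Ms4a1 had no count, Cd79a was carried by 1 cell, and the 4 B cell markers summed to 0.533 CPM. Itgax, Flt3, Cd209a and Xcr1 of dendritic cells had no count either, while the 10 macrophage and dendritic markers in the table summed to 33.5 CPM against 8.60, led by C1qb at 16.7 CPM, and Csf1r was carried by 1 cell. Neutrophil markers summed to 7.89 CPM and T cell markers had no count. The mesenchymal markers summed to 4107 CPM, led by Cxcl12 at 4012, against 3782 CPM in the other endothelial cells. The cells thus had the endothelial markers and few of blood cells.

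In the same 23 cells, other genes of the class II route were partly present. H2-DMb1, a chain of the molecule that edits class II peptides, was carried by 13 of 23 against 16 of the other 284 endothelial cells, and H2-DMa, its partner, by 5 against 10. Ciita, the master regulator of class II genes, was carried by 1 of 23, at 1.71 CPM over the 23 cells against 2.80 CPM in the others. The costimulation genes Cd80 and Cd86 and the cathepsin gene Ctss had no count in them, and Cd40 was carried by 2.

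In the mesenchymal gates class II counts were few and partly tied to runs of libraries. In old MSC-L, Cd74 had 120 counts against 2 in young MSC-L, a log2 ratio of 6.13 (95% interval 4.25 to 9.20), and H2-Aa had 51 against 2, while H2-Ab1 stood at 14.8 against 17.8 CPM. With the top cell of each age left out, H2-Ab1 was 11 against 0.0898 CPM, and in the MSC-L of clusters M1 and M2 it was 15.2 against 0.0909 CPM. In range 1 it was 21.1 CPM against 0 counts, and in range 2 11.4 against 27.7 CPM. Of the 3 genes, 2 passed the filter and 1, Cd74, was 2-fold or more higher, with 0 lower, beside 13.9% and 11.5% of all genes. The hematopoietic markers summed to 264 CPM in old and 35.3 CPM in young MSC-L, and the part of this in the class II difference was not tested. The old MSC-L with at least 7 hematopoietic markers is 1 of 2 in cluster M5, and these 2 cells had 0 counts of Cd74, H2-Aa and H2-Ab1. All 7 old MSC-L with all 3 class II genes lay in the run of 9 consecutive libraries, whose Cd74 ran from 7.46 to 53.7 CPM with a median of 23.8. H2-Aa in these 9 ran from 6.19 to 26.8 CPM and H2-Ab1 from 19.4 to 53.7 CPM, so that all 3 genes were low and even. Without the run, Cd74 in the other 49 old MSC-L was 2.53 CPM, H2-Aa 0.432 CPM and H2-Ab1 12 CPM, and 0 cells carried all 3. In old OPr the 7 kept cells of the run held Cd74 from 1.55 to 11.4 CPM, with a median of 4.34, and the other 14 cells had no Cd74 count and 0.183 CPM of H2-Aa. The cause of these runs was not tested.

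H2-Ab1 in OPr was the remaining class II difference by age, at 42 CPM in old against 8.69 CPM in young cells (log2 ratio 2.27, 95% interval 2.06 to 2.49). It was the 1 class II gene of 3 that passed the filter there and was past 2-fold, beside 26.4% of all genes. It was carried by 6 of 21 old and 8 of 44 young OPr, and without the run of libraries it stood at 54.8 CPM in the other 14 old cells. Within the M3 to M5 cells of the gate it was 26 CPM in old and 11.7 CPM in young cells, with 64.7% of these old counts in 1 cell. In OPr without the cells of M1 and M2 and without the top cell of each age, it was 10.6 against 6.09 CPM, under 2-fold. Over the M3 to M5 cells of all gates it was lower in old cells, at 11.5 against 21.5 CPM, where 1 young MSC-L held 61.1% of the young and 1 old OPr 64.7% of the old counts. Without these it was 4.30 against 8.51 CPM. In MSC-S and mOPr none of the 3 class II genes passed the filter. Between young MSC-L and young MSC-S, 1 gene passed and was past 2-fold, H2-Ab1, where 28.8% of all genes were, and nearly all its counts in young MSC-L came from 1 cell, without which it was 0.0898 against 0.0295 CPM.

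Among 40 other genes of antigen presentation and its control, the old progenitor gates again had the most differences by age. In mOPr, 30 of the 40 passed the filter, and 14 were 2-fold or more higher in old cells and 1 lower. In OPr, 30 passed, with 16 higher and 1 lower. Of the other class I chains, 6 of 7 were higher in OPr (median 1.87) and 6 of 7 in mOPr (median 1.78), and the 3 constitutive proteasome genes had medians of 0.13 and 0.10, with none past 2-fold. Of the 6 peptide loading genes, 2 were higher in OPr and 1 in mOPr, and of the 3 other immunoproteasome genes 2 in each. Of the 6 interferon and STAT genes, 4 were higher in each gate, and of the regulators that passed, 2 of 2 in OPr and 1 of 2 in mOPr. Of the 9 other genes of the class II route, 3 passed in each gate, with 0 higher and 1 lower, and none of the costimulation genes passed the filter. These counts stand beside the 26.4% of genes that were past 2-fold higher in OPr and 24.7% in mOPr. Without the cells of M1 and M2, 7 of 29 genes were higher and 7 lower in OPr, beside 23.7% and 28.1% of all genes, and 10 of 27 higher and 4 lower in mOPr, beside 21.8% and 32.6%.

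By the rule that takes the 3 with the largest ratio in each comparison, old mOPr had more H2-Q7 (109.6 against 6.31 CPM, log2 ratio 4.12, 95% interval 3.81 to 4.44) and H2-Q6 (187 against 26.3 CPM, log2 ratio 2.83, 95% interval 2.68 to 2.99), both nonclassical class I chains, and more Psmb10 (115 against 10.1 CPM, log2 ratio 3.50, 95% interval 3.25 to 3.75), an immunoproteasome subunit with 60.8% of its old counts in 1 cell. Old OPr had more Irf7 (102 against 6.44 CPM, log2 ratio 3.98, 95% interval 3.76 to 4.21), an interferon-induced factor with 52.6% of its old counts in 1 cell, and more H2-T22 (56.5 against 3.82 CPM, log2 ratio 3.89, 95% interval 3.60 to 4.18), a nonclassical chain. H2-DMa had 506 counts in young OPr, at 17.3 CPM, and 0 in old OPr, where 3 counts would be 0.187 CPM. The exact interval of its log2 ratio reached up to -6.22, and 1 young cell held 46% of the counts. Without the top cell of each age H2-DMa was 0 against 9.55 CPM in OPr, Irf7 51.2 against 4.57 CPM and H2-T22 45.9 against 2.18 CPM, and in mOPr H2-Q7 was 92.6 against 3.16 CPM, H2-Q6 139 against 15.2 CPM and Psmb10 46.4 against 6.02 CPM. Of the 50-base words of the nonclassical genes, 32% in H2-Q6, 26.4% in H2-Q7 and 34.5% in H2-T22 also occur in other genes, so their levels leave out more reads than those of H2-K1. H2-Q6, H2-Q7 and H2-Q10 are among the authors' cluster-defining genes. Without the cells of M1 and M2, H2-Q7 in mOPr was 48.2 against 2.67 CPM, H2-Q6 25 against 3.89 CPM and Psmb10 155 against 10.7 CPM, old against young, with 84.2%, 90.5% and 94.9% of the old counts in 1 cell each. In OPr, Irf7 was 32.1 against 7.19 CPM and H2-T22 16.7 against 3.96 CPM, with 73.8% of the old H2-T22 counts in 1 cell. With the top cells left out as well, Psmb10 in mOPr was 8.47 against 6.34 CPM, H2-Q7 8.11 against 0.153 CPM and H2-Q6 2.53 against 0.749 CPM, and H2-T22 in OPr was 5.01 against 2.12 CPM.

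In the other comparisons by age fewer of the 40 genes were past 2-fold. In MSC-L, 1 of 31 that passed was higher and 1 lower, beside 13.9% and 11.5% of all genes. Ciita was higher (8.62 against 0.965 CPM, log2 ratio 3.16, 95% interval 2.51 to 3.87), with 56% of its old counts in 1 cell, Psmb7, the constitutive partner of Psmb10, was lower (32.2 against 74.2 CPM, log2 ratio -1.20, 95% interval -1.34 to -1.07), and Stat2, a transducer of type I interferon signals, was higher by less than 2-fold (95.9 against 55.2 CPM, log2 ratio 0.80, 95% interval 0.69 to 0.90). Ciita was 3.87 against 0.178 CPM without the top cells. In MSC-S, 3 of 29 were higher and 1 lower, beside 8.65% and 11.1% of all genes. H2-DMb1 (6.00 against 0.203 CPM, log2 ratio 4.89, 95% interval 3.82 to 6.22) and H2-T23, a nonclassical chain (119 against 54.2 CPM, log2 ratio 1.13, 95% interval 1.05 to 1.21), were higher and Stat2 lower (19.8 against 43 CPM, log2 ratio -1.12, 95% interval -1.25 to -0.99), and H2-DMb1 was 3.70 against 0.0591 CPM without the top cells. In AEC, 5 of 33 were higher and 4 lower, beside 9.33% and 11.7% of all genes. H2-Ob, a chain that restrains peptide editing, was higher (7.34 against 0.172 CPM, log2 ratio 5.41, 95% interval 4.27 to 6.87), as was H2-DMb1 (25.1 against 3.39 CPM, log2 ratio 2.89, 95% interval 2.61 to 3.18), while H2-DMa was lower (6.54 against 31 CPM, log2 ratio -2.24, 95% interval -2.46 to -2.04). For H2-Ob, 1 cell held 45.7% of the old counts and 1 cell all the young ones, and for H2-DMb1 1 cell held 56.8% of the young counts. Without the top cells H2-Ob was 4.04 against 0 CPM, H2-DMb1 18.1 against 1.48 CPM and H2-DMa 4.56 against 23.8 CPM, so the chains of the editing molecule differed in direction in AEC either way. In SEC, 5 of 35 were higher and 1 lower, beside 13.1% and 7.56% of all genes, and the higher ones included Ciita (9.79 against 0.182 CPM, log2 ratio 5.75, 95% interval 4.37 to 7.64), H2-Oa (7.82 against 0.319 CPM, log2 ratio 4.61, 95% interval 3.54 to 5.95) and Irf7 (68.7 against 14.4 CPM, log2 ratio 2.26, 95% interval 2.08 to 2.44). A single old SEC held 96.6% of the Ciita counts, and a single one 97.5% of the H2-Oa counts. Without the top cells Ciita was 0.344 against 0.0463 CPM and H2-Oa 0.197 against 0.231 CPM, so that H2-Oa was no longer higher in old SEC.

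Between young MSC-L and young MSC-S, 18 of 30 other genes that passed were 2-fold or more higher in MSC-L and 2 lower, beside 28.8% and 16.8% of all genes. The higher ones included all 7 other class I chains. H2-Q10, whose product is secreted, had the widest gap (185 against 0.232 CPM, log2 ratio 9.64, 95% interval 8.66 to 10.85), followed by H2-Q6 (221 against 1.24 CPM, log2 ratio 7.47, 95% interval 7.04 to 7.94) and H2-Q7 (202 against 2.87 CPM, log2 ratio 6.14, 95% interval 5.85 to 6.44). Between the young endothelial gates of range 3, 2 of 32 were higher in SEC and 7 lower, beside 24.9% and 17.3% of all genes. H2-Q10 was higher (49.2 against 1.08 CPM, log2 ratio 5.51, 95% interval 4.46 to 6.82), and Cd40, a receptor of costimulation (1.92 against 28.8 CPM, log2 ratio -3.91, 95% interval -4.43 to -3.42), and Irf7 (14.4 against 105 CPM, log2 ratio -2.88, 95% interval -3.07 to -2.68) were lower, with 95.2% of the SEC counts of Cd40 in 1 cell. The mesenchymal markers were higher in young SEC as well, at 6579 CPM against 2525 CPM over all young AEC, and without the cells that carried at least 5 mesenchymal markers H2-Q10 was 11.5 against 1.08 CPM, still past 2-fold. Nlrc5, the regulator of class I genes, was not among the genes the rule selects. Chosen after its values were seen, it stood at 99.3 CPM in young and 165 CPM in old MSC-L, 5.27 and 7.91 CPM in MSC-S, 20.1 and 81.5 CPM in OPr and 7.20 and 49.3 CPM in mOPr. It was 32.8 and 28 CPM in young and old AEC and 44.2 and 51.3 CPM in young and old SEC.

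Over the 653 cells, the members were correlated to different degrees. On the scale of log2 CPM plus 1, Pearson's r between class I genes lay between 0.23, for Tap2 with Psmb9, and 0.71, for H2-D1 with B2m. It was 0.65 for H2-K1 with H2-D1 and 0.68 for Cd74 with H2-Aa. Between a class I and a class II gene r was at most 0.17. Over the 12 groups r between a class I and a class II gene was higher, up to 0.74 for Tap2 with Cd74, while the lowest between class I genes was 0.70, for H2-D1 with Tap2. It was 0.98 for H2-D1 with B2m, 0.94 for H2-K1 with Tap1 and 0.97 for Cd74 with H2-Aa. Many cells share a gate, an age or a range of library numbers, and so do the groups, so these values describe the profiles without a test. Of 13856 other genes at 10 CPM or more in at least 1 group, the 5 whose 12 levels most resembled the mean class I profile were Mfap3 (r 0.97), Ifi47 (0.97), Cdc42ep1 (0.97), Adcy6 (0.96) and Thrap3 (0.96). Ifi47, an interferon-inducible GTPase gene, ran from 0 in young OPr to 199 CPM in young SEC. For the class II profile they were Fryl (r 0.98), Adgrg1 (0.97), Vwf (0.97), 9930111J21Rik2 (0.96) and Pced1b (0.95). Vwf, the endothelial gene of von Willebrand factor, ran from 1.92 CPM in old mOPr to 494 CPM in young AEC.

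Because H2-K1, H2-D1 and B2m varied together over the groups, their promoters are shown, with the stretch between the starts of Psmb9 and Tap1. Promoters of 7 of the 10 genes were found by symbol in the RefSeq table (GRCm38.p6), and Tap2, Cd74 and H2-Ab1 had no entry. Each window is the 250 bases before the start, read 5′ to 3′ on the strand of the gene, H2-K1 at chr17:34000348-34000597 (minus), H2-D1 at chr17:35262844-35263093 (plus) and B2m at chr2:122147437-122147686 (plus). The stretch of 225 bases between the RefSeq starts of Psmb9 and Tap1 is chr17:34187331-34187555 (plus). The RefSeq starts of H2-D1, B2m, Psmb9 and Tap1 differ from those of GENCODE given above, so that the window of H2-D1 lies inside the GENCODE gene, that of B2m ends on its first base, and the stretch lies inside Psmb9. Capitals mark matches on either strand to AANNGAAA (part of the interferon regulatory factor motif), TTCNNNGAA (gamma-activated site), GGGNNTTCC (NF-kB), TGACGC (part of a cAMP response element) and ATTGG (inverted CCAAT), none of which overlap in these windows.
H2-K1: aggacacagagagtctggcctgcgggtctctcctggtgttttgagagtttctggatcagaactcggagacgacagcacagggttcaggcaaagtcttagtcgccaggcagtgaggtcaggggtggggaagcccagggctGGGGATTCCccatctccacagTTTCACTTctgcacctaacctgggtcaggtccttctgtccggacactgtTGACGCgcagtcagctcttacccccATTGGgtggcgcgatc
H2-D1: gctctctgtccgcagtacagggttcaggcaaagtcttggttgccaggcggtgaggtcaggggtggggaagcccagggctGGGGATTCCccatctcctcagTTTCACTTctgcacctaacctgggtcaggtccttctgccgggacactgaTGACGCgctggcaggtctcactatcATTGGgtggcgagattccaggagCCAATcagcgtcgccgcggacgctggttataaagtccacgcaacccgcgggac
B2m: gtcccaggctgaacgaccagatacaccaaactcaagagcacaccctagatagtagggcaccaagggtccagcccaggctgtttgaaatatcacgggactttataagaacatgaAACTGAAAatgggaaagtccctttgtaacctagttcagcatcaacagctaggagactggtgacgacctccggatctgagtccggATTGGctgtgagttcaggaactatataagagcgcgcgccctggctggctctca
Psmb9 to Tap1: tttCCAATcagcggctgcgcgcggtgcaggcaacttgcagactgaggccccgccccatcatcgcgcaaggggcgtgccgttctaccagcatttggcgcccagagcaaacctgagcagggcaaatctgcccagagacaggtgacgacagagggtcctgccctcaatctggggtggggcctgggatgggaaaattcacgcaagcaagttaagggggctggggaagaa

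In H2-K1 and H2-D1 the matches came in the same order, GGGNNTTCC, AANNGAAA on the reverse strand, TGACGC and ATTGG, and H2-D1 held a further ATTGG on the reverse strand. In H2-K1 they began 111, 90, 41 and 16 bases before the start. A second RefSeq start of H2-K1 lies a few bases farther into the gene, and its window, not shown, held these 4 and a further ATTGG that began 6 bases before that start. In H2-D1 the first began 171 and the ATTGG of the same order 76 bases before the start. Placed without gaps, the windows of H2-K1 and H2-D1 were identical at 166 of 190 bases (87.4%). B2m held AANNGAAA and ATTGG, and the stretch between the starts of Psmb9 and Tap1 held 1 ATTGG. Of the promoters not shown, that of Psmb8 held TTCNNNGAA, and that of H2-Aa held AANNGAAA, GGGNNTTCC and ATTGG. Among all 32851 promoters of the table, 21.3% held AANNGAAA in the same 250 bases, 7.02% TTCNNNGAA, 4.98% GGGNNTTCC, 6.12% TGACGC and 33.8% ATTGG. A match is a description of letters and no evidence of binding.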

How the data were processed

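The values are counts, made by the authors with GSNAP (2015-09-29) on GRCm38.p4 and HTSeq, which dropped reads mapped to several places and ignored strand. The table held 46078 gene rows and 661 cells, all mapped to GEO samples (columns unmapped: 0). Counts of 270 repeated symbols were summed, and 37 mitochondrial genes were left out of totals. Cells at 1000 CPM of Il1b or more were dropped. The level of a group is the CPM of its summed counts with an exact Poisson 95% interval, and a ratio carries an exact conditional interval. Log2 ratios of lists used 1 CPM added, for genes with at least 100 counts over both groups in at least 5 cells. With 1 sample per group no test was made. A cell carries a gene at 10 CPM or more. The members and all lists were chosen with earlier results of these data known. From the 40 other pathway genes, made of other class I chains, peptide loading, other immunoproteasome, regulators, other class II pathway, costimulation, constitutive proteasome, and interferon and STAT genes, the 3 with the largest absolute ratio in each comparison were named. The 5 genes most like the class I and the class II profile were named. Of the B cell markers first listed, 1 is not reported here. Motif letters were chosen after the sequences had been seen. Scripts ran in Python 3.11.15 with scipy 1.17.1 for intervals, pandas 2.3.3 and numpy 2.4.6 for tables and matplotlib 3.10.9 for figures, and used GENCODE M21 and RefSeq promoters (GRCm38.p6). The intervals of levels and ratios were tried on simulated Poisson counts, which is the model they assume. The simulation held no spread between cells and no copying by PCR, so it does not show how the intervals hold for the real counts. Alternatives were means over cells, size factors, thinning to 100000 counts, another pseudocount, no filter, all cells, cells without hematopoietic markers, single library ranges, identity groups of clusters, and leaving out the highest cell, the runs of libraries, cells with at least 50% of the markers of the other lineage or, in OPr and mOPr, the cells of M1 and M2.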

Additional observations from a re-analysis of the deposited data

How the results depend on the processing

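No paired analysis was possible because no cell or group shares a named mouse with another. The class I medians under alternatives were taken over all 7 genes, whether or not they passed the filter there. Of these, 97 lay within the range of the 7 genes in the comparison as reported, and 1 moved out of it. That range is the spread of single genes, so it is a wide bound and no measure of stability. In old over young OPr the median was 3.04 in library range 2 alone, against 1.68, and the cause was not tested. Between these alternatives that median lay from 1.22 to 3.04 in OPr, 1.36 to 3.02 in mOPr, 0.09 to 0.36 in MSC-S, -0.66 to -0.30 in MSC-L, 2.26 to 3.02 in young MSC-L over MSC-S and 0.03 to 0.32 in young SEC over AEC, with 1 sign in each. It was near 0 in AEC (-0.33 to 0.24) and SEC (-0.01 to 0.26), and had the other sign under 4 alternatives there, 3 in AEC and 1 in SEC, all within that range. In mOPr without the cells of M1 and M2, the 6 genes that passed had a median of 1.07, below the lowest of the 7 reported ratios, 1.26. Not among the alternatives are the MSC-L of M1 and of M2, whose medians of -0.14 and -0.99 lay outside the span of MSC-L above.

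Of the values of single genes, 579 stayed as near to the reported value as its counting interval reaches, 395 moved farther, and 6 reversed, which is said of a gene past the filter and past 2-fold that takes the other sign. The other sign was also taken by 46 of the moved and 7 of the nearby values, which were of genes under 2-fold or under the filter. Among these, Cd74 in old over young OPr kept its sign under 11 of 14 alternatives, and H2-Ab1 in old over young MSC-S under 11 of 12. With identity groups of clusters in place of sorted populations, the log2 ratio of H2-Ab1 in old over young OPr was -0.85, against 2.15, and that of Tap1 in young SEC over AEC was 0.26, against -1.06. Tap2 in old over young mOPr was -0.44 in range 2 alone, against 1.26, and Tap1 was -2.62 without the cells of clusters M1 and M2, against 2.48. H2-Ab1 in young MSC-L over MSC-S was -0.11 in range 1 alone, against 4.15. H2-Aa in young SEC over AEC was 0.33 without the highest cell of each group, against -1.29. The cause was not tested. The alternatives without the runs of libraries, without cells that carry at least 50% of the markers of the other lineage and, in OPr and mOPr, without the cells of M1 and M2 were chosen after seeing the data. Without the runs Cd74 in old over young MSC-L was 1.70, against 2.72.

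Depth limits the shares of cells. Cd74 was carried by 23.2% of old AEC at 10 CPM and at 50 CPM, by 36.6% at 1 count, and by 28% at 1 count after thinning to 100000 counts, which kept all 82 old AEC and left out 7 cells of other groups.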
